A study of Mus musculus with 6 samples.

Results

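The 44 genes described here encode proteins of the synaptic vesicle and of the machinery that releases its content at the presynaptic terminal, and they were measured by RNA-seq in the hippocampus of 3 WT and 3 TG mice. They were chosen by gene symbol, with earlier results of these data known, from the 54532 genes of the deposited table. Each of the 44 symbols matched 1 gene. The TG mice carried the G82R and L85P changes in exon 3 of Slc1a2, the gene of the astrocytic glutamate transporter GLT-1, both knocked in with CRISPR/Cas9 on a C57BL/6N background, and the WT mice were littermates without the changes. Both changes were present in the same TG animals, so the contribution of either one cannot be told apart, and the age of the animals and whether they carried 1 or 2 altered copies are not given in the sources used here. Each library is taken as 1 animal and is called WT1 to WT3 or TG1 to TG3 after its number in the labels. The question was whether the mRNA of the release machinery differed between TG and WT hippocampus.

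Transmitter is loaded into synaptic vesicles, which are held in clusters by synapsins and brought to the active zone by Rab3 and its partners. There, scaffold proteins such as bassoon, piccolo and the RIM proteins and the priming factors of the Munc13 family prepare the vesicle for fusion, which is carried out by the SNARE proteins SNAP-25, syntaxin and synaptobrevin and triggered by calcium through synaptotagmin. Complexins and tomosyn regulate the SNARE complex, NSF takes it apart after fusion, and dynamin and its partners retrieve the membrane by endocytosis. In the hippocampus this machinery serves glutamate release from pyramidal and granule cells as well as GABA release from interneurons.

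The promoters of these genes are shown first, as sequence features that the choice of the members did not use. RefSeq windows of 250 bases before to 50 bases after a transcription start (GRCm38.p6) were found for 34 of the 44 genes, which gave 44 windows. The median GC content was 62.2% in these windows and 52.7% in all 32851 windows of the genome, and the median number of CG dinucleotides was 18.5 and 7. The GC box GGGCGG, read on both strands, was found in 28 of the 44 windows (63.6%) and in 35.7% of all windows. The TATA box TATAAA was found in 6.82% and 13.6%, and the cyclic AMP response element TGACGTCA in 2.27% and 1.79%. The left part of the binding motif of REST, a repressor of neuronal genes outside neurons, was searched as TTCAGCACC. It was found in 2 of the 44 windows (4.55%), those of Syn1 and Unc13a, and in 0.371% of all windows. Its right part GGACAGCGC was found in 1 window (2.27%), that of Unc13a, and in 0.405% of all windows. A match is a description of the letters and not of binding. The promoters of 3 genes are printed 5′ to 3′ on the strand of the gene. Rims3, at chr4:120854549-120854848 on the plus strand, is shown because this gene had the smallest p of the 44, and the capitals mark 3 GC boxes read on the other strand. Syn1, at chrX:20920869-20921168 on the minus strand, is shown for the cyclic AMP response element in capitals. Unc13a, at chr8:71671708-71672007 on the minus strand, is shown because both parts of the REST motif were found in it, on the other strand, and these are in capitals.
Rims3: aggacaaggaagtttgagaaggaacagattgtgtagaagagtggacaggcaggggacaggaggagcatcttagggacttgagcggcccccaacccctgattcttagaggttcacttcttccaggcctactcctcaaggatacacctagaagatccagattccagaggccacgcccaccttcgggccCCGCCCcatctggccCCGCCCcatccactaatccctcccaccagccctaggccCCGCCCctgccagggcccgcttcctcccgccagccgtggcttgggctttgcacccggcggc
Syn1: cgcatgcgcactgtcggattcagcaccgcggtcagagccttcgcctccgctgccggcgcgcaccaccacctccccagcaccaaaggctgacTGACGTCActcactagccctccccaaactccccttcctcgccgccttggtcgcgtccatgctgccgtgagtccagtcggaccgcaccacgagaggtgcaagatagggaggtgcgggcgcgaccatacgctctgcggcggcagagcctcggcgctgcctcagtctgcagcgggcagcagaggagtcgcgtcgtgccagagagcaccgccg
Unc13a: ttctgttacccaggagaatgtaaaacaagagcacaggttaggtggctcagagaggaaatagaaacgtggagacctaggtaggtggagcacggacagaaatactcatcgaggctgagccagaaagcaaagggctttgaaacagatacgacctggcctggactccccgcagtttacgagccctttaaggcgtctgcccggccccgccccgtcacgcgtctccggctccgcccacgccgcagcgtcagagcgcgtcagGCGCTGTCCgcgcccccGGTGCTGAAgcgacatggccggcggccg

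Between 16081281 and 18751057 reads fell on genes per library, and FPKM, the reads of a gene scaled to its length and to the reads of the library, was the deposited value. The summed FPKM of 11 neuronal markers lay between 692 and 770 in WT and between 665 and 758 in TG mice. The 10 markers of hippocampal fields, among them Prox1 of granule cells and Wfs1 of CA1, were above 0 in every library, and their sum lay between 319 and 345 in WT and between 308 and 341 in TG mice. The targeted gene Slc1a2 had 177 to 202 FPKM in WT and 207 to 222 FPKM in TG mice. The groups did not overlap, as for 12.1% of all genes tested. Its log2 fold change was 0.16, with an adjusted p of 0.789 in limma. A base change in an exon does not show in such a total. These values are of mRNA, and the authors report by Western blot that GLT-1 protein was almost absent from the TG hippocampus. In TG1 and TG2 the 21 markers of the choroid plexus, an epithelium of the ventricles next to the hippocampus, summed to 1364 and 4250 FPKM, against 90.6 to 123 in the other 4 libraries. The markers of oligodendrocytes summed to 722 to 897 FPKM in WT and 556 to 824 FPKM in TG mice, with a median log2 fold change of -0.32 and 10 of 10 genes negative. TG1 was the lowest library, and the median was -0.13 without it and -0.42 without WT3, the lowest WT library. Interneuron markers summed to 652 to 895 and 656 to 747 FPKM, with the highest sum in WT3. The sums of the astrocyte, microglia, endothelium and blood markers and of markers of neighbouring brain regions overlapped between the groups, with median log2 fold changes of 0.03, 0.12, 0.09, -0.13 and 0.05. In tissue RNA, fewer cells of a type and less RNA per cell cannot be told apart.

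The levels of the 44 genes covered a wide range. The FPKM of the members summed to 3723, 3684 and 3752 in the WT libraries, in the order of their numbers, and to 4019, 3521 and 3714 in the TG libraries. Counted as reads, the members took 1.96% to 2.19% of the reads on genes. TG1 had the highest and TG2 the lowest sum, and the WT sums lay between them. Averaged over the 6 libraries, 13 members had at least 100 FPKM, 22 had 10 to 100, 8 had 1 to 10 and 1 was under 1, with a median of 47.8 FPKM. The reads behind a value ran from 68 (Cplx3 in WT2) to 38243 (Snap25 in WT3), and 36 members had at least 1000 reads in every library. By level per length, Cplx2 led with a mean of 317 FPKM and was followed by Dnm1 (286 FPKM), Vamp2 (259.8 FPKM), Snap25 (259.6 FPKM), Cplx1 (256 FPKM) and Rab3a (237 FPKM). The ranges of these 6 genes overlapped from each to the next. Within every library, however, Cplx2 lay above Dnm1, Dnm1 above Vamp2 and Cplx1 above Rab3a. The order among Vamp2, Snap25 and Cplx1 changed between libraries, and Snap25 stood above Cplx2 in WT3 (301 against 299 FPKM). The lowest value of Rab3a lay above the highest of Syp, which came next with 188 FPKM. At the low end stood Syn3 with 0.865 FPKM, below Unc13b with 2.14 FPKM, and the ranges of these 2 genes did not overlap. The most abundant members of the functional classes ranged from 38.7 FPKM for Bsn among the active zone proteins to 317 FPKM for Cplx2 among the SNARE regulators.

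**Figure D1:**
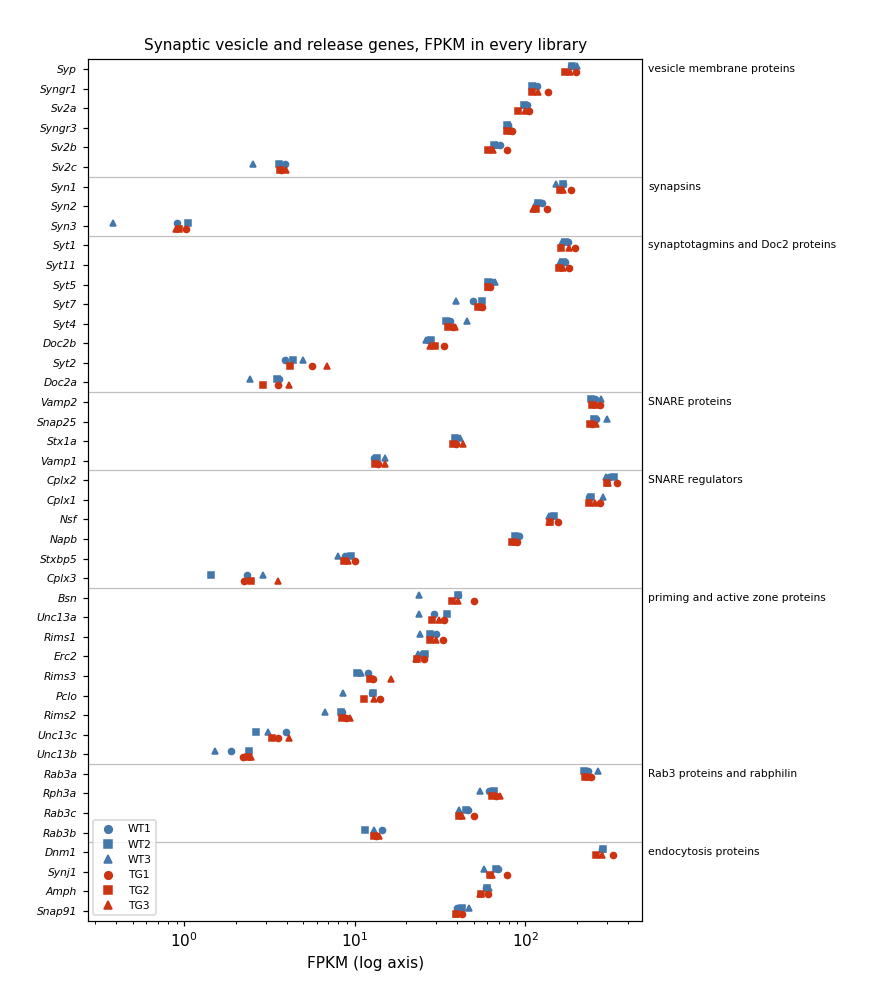
FPKM on a log axis of each of the 44 members in the 6 libraries, 1 row per gene and 1 point per library, with WT and TG in different colours. The points of a gene lie close together next to the distance between genes, from 0.865 FPKM for Syn3 to 317 FPKM for Cplx2.

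Between TG and WT mice, no member passed an adjusted p of 0.05. The fit was made with limma on log2(FPKM + 0.1) over 20952 genes, those whose FPKM averaged 0.1 or more, which took in all 44 members, and a log2 fold change is TG minus WT on that scale. The smallest adjusted p of a member in limma was 0.786, and 0.00955% of all genes tested passed, 0.00477% in each direction. At an unadjusted p under 0.05, 1 member was higher in TG mice (2.27% of the members, against 3.13% of all genes tested) and 0 were lower (against 2.78%), where 5.91% of all genes tested passed in either direction. The fit with limma-voom on the recovered reads called 0 members at an adjusted p as well. The values of the groups did not overlap for 2 members, Rims2 and Rims3, both higher in TG mice, which is 4.55% of the members against 12.1% of all genes tested, 6.35% higher and 5.71% lower in TG mice. None of these shares was above that of all genes. The log2 fold change was positive for 32 members (72.7%, against 49.6% of all genes) and negative for 12. Its median was 0.05 over the members and -0.002 over all genes, and it ran from -0.12 for Snap25 to 0.35 for Syn3. With 1 library left out, the number of positive members was 24 without TG1, 26 without WT3 and 27 without WT2. It was 32 without WT1 and without TG3, and 35 without TG2. The 95% interval of the log2 fold change lay within 0.5 of 0 for 34 members, so that for these genes a change beyond that size falls outside the interval, and over all members the intervals reached from -0.43 to 1.13.

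**Figure D2:**
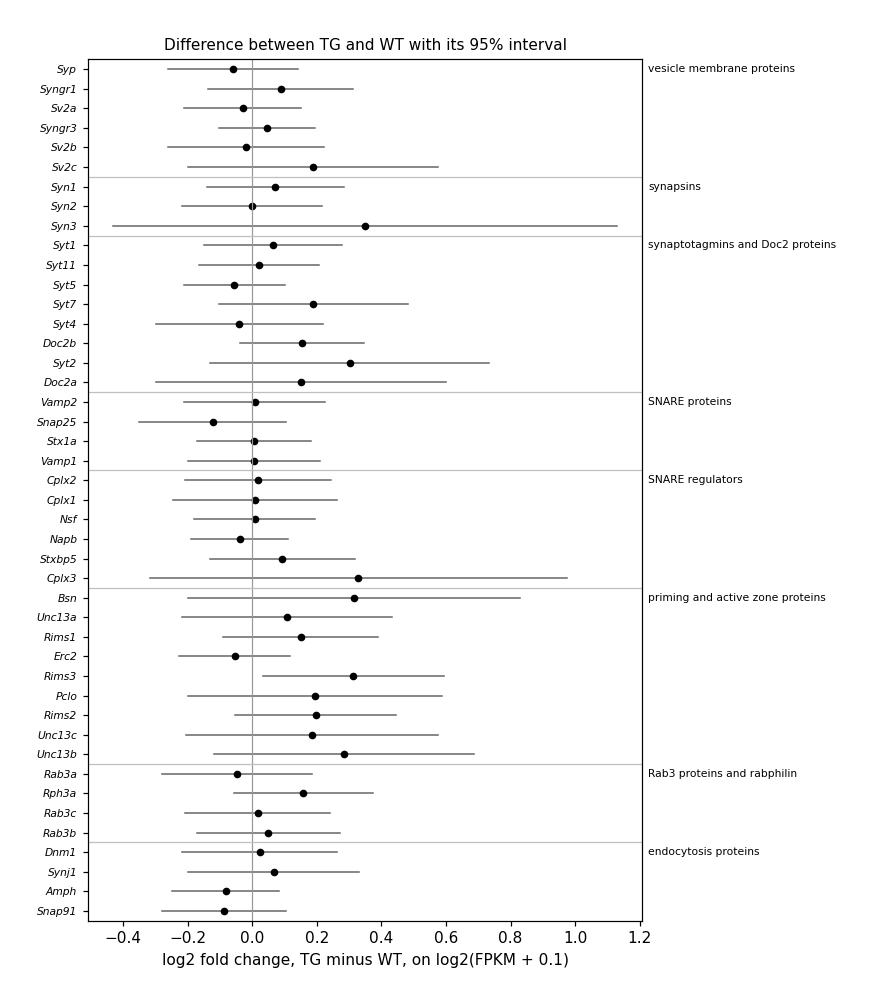
Log2 fold change, TG minus WT, of the 44 members with its 95% interval from limma, 1 row per gene. The intervals include 0 for every member except Rims3, at 0.31.

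Among the proteins of the vesicle membrane, levels differed little between the groups. Synaptophysin, Syp, one of the most abundant proteins of the vesicle, had 185.5, 189 and 201 FPKM in WT and 199, 172 and 183 FPKM in TG mice. Its ranges overlapped and its log2 fold change was -0.06 ± 0.09 (SE). Sv2c, a minor form of the vesicle glycoprotein SV2, had 3.89, 3.60 and 2.52 FPKM in WT and 3.67, 3.64 and 3.95 FPKM in TG mice, where WT3 alone was low. Its log2 fold change of 0.19 ± 0.16 (SE) was 0.004 without WT3. The other 4 members of this class, Sv2a, Sv2b, Syngr1 and Syngr3, had mean levels of 68.0 to 117 FPKM and log2 fold changes of -0.03 to 0.09, and 3 of the 6 members of the class were positive.

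Of the synapsins, which tether vesicles to each other and to actin, Syn1 had 168, 166 and 152 FPKM in WT and 187, 159 and 166 FPKM in TG mice. The groups overlapped, with a log2 fold change of 0.07 ± 0.09 (SE), and Syn2 averaged 120.0 FPKM with a log2 fold change of -0.001. Syn3, the member with the lowest level, had 0.903, 1.05 and 0.383 FPKM in WT and 1.03, 0.927 and 0.897 FPKM in TG mice. WT3 lay far below the other 5 libraries with 88 reads, and the log2 fold change of Syn3 went from 0.35 ± 0.33 (SE) to -0.04 without it. Of its exonic bases, 14.1% overlap those of Timp3 on the opposite strand.

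The synaptotagmins and Doc2 proteins bind calcium or phospholipids through C2 domains, and Syt1 is the sensor for fast release. Syt1 had 179, 171 and 164 FPKM in WT and 195, 163 and 180.4 FPKM in TG mice, and the ranges overlapped. Doc2b, a high-affinity calcium sensor linked to spontaneous release, had 27.0, 28.0 and 26.2 FPKM in WT and 33.2, 29.6 and 27.8 FPKM in TG mice. Only TG3 fell within the WT range, and the log2 fold change was 0.15 ± 0.08 (SE), with an unadjusted p of 0.101 and an adjusted p of 0.789 in limma. TG1 was the highest library, and the log2 fold change was 0.08 without it. It was 0.04 without both TG1 and TG2, which leaves TG3 as the only TG library. Syt5 had 64.2, 60.2 and 66.7 FPKM in WT and 62.4, 60.7 and 60.6 FPKM in TG mice, all 3 TG values lying inside the WT range. Its log2 fold change was -0.05 ± 0.07 (SE). Over the 8 members of the class 6 were positive, with a median of 0.11, or 0.04 without WT3.

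Of the 4 SNARE proteins, 3 had a log2 fold change of 0.01. Vamp2, the synaptobrevin of most forebrain vesicles, had 257, 242 and 279 FPKM in WT and 276, 246 and 259 FPKM in TG mice, with a log2 fold change of 0.01 ± 0.09 (SE). Snap25, the SNARE protein of the plasma membrane with a pair of helices, had 259, 252 and 301 FPKM in WT and 245, 241 and 259 FPKM in TG mice. WT3 was the highest library, WT1 lay just above the TG range and WT2 within it, and the log2 fold change of -0.12 ± 0.10 (SE) was the lowest of the 44 members, with an unadjusted p of 0.245 and an adjusted p of 0.790 in limma. It was -0.04 without WT3. Vamp1 and Stx1a averaged 13.9 and 39.8 FPKM.

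Of the regulators of SNARE complexes, Cplx2, a complexin that clamps and promotes fusion, had 312, 334 and 299 FPKM in WT and 346, 304 and 307 FPKM in TG mice. Its log2 fold change was 0.02 ± 0.10 (SE) and the groups overlapped almost fully. Cplx3, a complexin known best from retinal ribbon synapses, had 2.34, 1.43 and 2.88 FPKM in WT and 2.25, 2.46 and 3.56 FPKM in TG mice. TG3 was the highest and WT2 the lowest library, and the log2 fold change of 0.33 had an SE of 0.28. Cplx1, Nsf, Napb and Stxbp5, the gene of tomosyn, had log2 fold changes of -0.04 to 0.09.

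The priming and active zone proteins had the largest median, 0.19, with 8 of 9 members positive. Rims3, which encodes a short RIM protein made of the C-terminal C2 domain, had 11.9, 10.3 and 10.9 FPKM in WT and 12.8, 12.3 and 16.2 FPKM in TG mice. Every TG value lay above every WT value, and TG3 stood above the other 2 TG libraries. The means were 11.0 ± 0.834 (SD, n = 3) and 13.8 ± 2.15 FPKM (SD, n = 3). The log2 fold change was 0.31 ± 0.12 (SE), with a 95% interval of 0.03 to 0.59, an unadjusted p of 0.0331 and an adjusted p of 0.786 in limma. A two-sided exact permutation test of the FPKM gave p = 0.1, the smallest that 3 against 3 libraries allow. Rims3 lay above an unadjusted p of 0.05 when WT2, WT3 or TG3 was left out with unadjusted p of 0.117, 0.0835 and 0.0852 in limma, and the log2 fold change without TG3 was 0.19. It was 0.53 with the mean log2(FPKM + 0.1) of the choroid plexus markers as a covariate. Those markers were high only in TG1 and TG2, so that fit cannot tell them apart from the group in these libraries. It leans on TG3, where Rims3 was highest. Rims2, which encodes a RIM scaffold of the active zone that binds Rab3 and Munc13, had 8.42, 8.28 and 6.68 FPKM in WT and 8.87, 8.47 and 9.37 FPKM in TG mice. The groups did not overlap, but the lowest TG value was close to the highest WT value and WT3 was the low library. Its log2 fold change was 0.20 ± 0.11 (SE), with an unadjusted p of 0.106 and an adjusted p of 0.789 in limma, and 0.09 without WT3.

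Bsn, the gene of the scaffold bassoon and the most abundant member of this class, had 40.6, 40.3 and 23.7 FPKM in WT and 50.2, 37.3 and 40.1 FPKM in TG mice. WT3 was far below the other 5 libraries, and the log2 fold change of 0.32 ± 0.22 (SE) was 0.06 without it. Pclo, the gene of piccolo, the other giant scaffold, was looked at after its values were seen and also had its highest value in TG1 and its lowest in WT3, with 12.6, 12.8 and 8.48 FPKM in WT and 14.0, 11.4 and 12.9 FPKM in TG mice. Its log2 fold change of 0.19 was 0.003 without WT3. Unc13b, the gene of a Munc13 priming factor, had 1.88, 2.39 and 1.52 FPKM in WT and 2.20, 2.36 and 2.47 FPKM in TG mice. WT2 lay among the TG values, the log2 fold change was 0.28 ± 0.17 (SE) and its unadjusted p was 0.140 in limma. It was 0.13 without WT3 and 0.44 without WT2. Erc2, the gene of the active zone protein CAST, was the negative member of the class, with 24.9, 25.7 and 23.6 FPKM in WT and 25.5, 23.2 and 22.8 FPKM in TG mice and a log2 fold change of -0.05 ± 0.07 (SE). Without WT3 the median of the class was 0.07 and 7 of 9 members were positive. With any other single library left out it was 0.16 to 0.28, and corrected for gene length 0.13, with 8 of 9 positive each time.

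**Figure D3:**
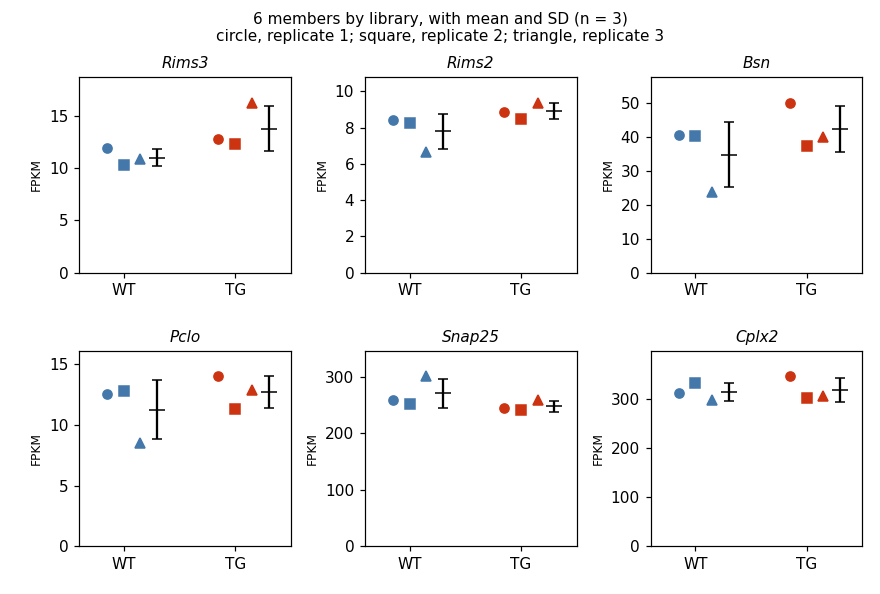
FPKM of Rims3, Rims2, Bsn, Pclo, Snap25 and Cplx2 in each WT and TG library, with the symbols naming the replicate number and the bars the mean and SD (n = 3). The TG points of Rims3 and Rims2 lie above all WT points, whereas WT3 (triangle) is the low WT library of Bsn and Pclo, at 23.7 and 8.48 FPKM, and the high one of Snap25, at 301 FPKM.

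Rab3a, the main Rab3 GTPase of synaptic vesicles, had 235, 221 and 269 FPKM in WT and 244, 223 and 232 FPKM in TG mice, with a log2 fold change of -0.05 ± 0.10 (SE). Rph3a, the gene of the Rab3 effector rabphilin, had 61.7, 65.9 and 54.0 FPKM in WT and 67.8, 63.5 and 71.1 FPKM in TG mice. WT2 lay between the TG values, the log2 fold change was 0.16 ± 0.09 (SE) with an unadjusted p of 0.127 in limma, and it was 0.08 without WT3. Rab3b and Rab3c had log2 fold changes of 0.05 and 0.02.

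In the endocytosis class, Dnm1, the neuronal dynamin that cuts vesicles from the membrane, had 282, 286 and 283 FPKM in WT and 326, 262 and 281 FPKM in TG mice. The WT libraries were nearly equal, with a coefficient of variation of 0.662%, the lowest of the 44 members, and the TG libraries lay on both sides of them. Amph, the gene of amphiphysin, which recruits dynamin, had 58.9, 59.6 and 61.6 FPKM in WT and 60.9, 55.3 and 54.0 FPKM in TG mice. Snap91, the gene of the clathrin adaptor AP180, had 39.5, 42.4 and 46.6 FPKM in WT and 42.7, 39.2 and 39.1 FPKM in TG mice. For both genes TG2 and TG3 lay below the WT range and TG1 within it, and their log2 fold changes were -0.08 ± 0.07 (SE) and -0.09 ± 0.08 (SE), with unadjusted p of 0.279 and 0.324 in limma. Amph had -0.13 without TG1, and Snap91 had -0.02 without WT3. Synj1, the gene of the lipid phosphatase synaptojanin, averaged 66.4 FPKM with a log2 fold change of 0.07.

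The libraries differed in how often they were the highest or the lowest. TG1 was the highest of the 6 libraries for 18 of the 44 members and the lowest for 0, whereas TG2 was the lowest for 11, the highest for 0 and the lowest of the TG libraries for 34. WT3 was the lowest for 18 and the highest for 10. The place of WT3 went with gene length. The Spearman correlation between the length of a member and the deviation of a library from the mean of the 6 libraries, on the log2(FPKM + 0.1) scale, was -0.55 in WT3 and between 0.12 and 0.53 in the other 5 libraries, over the 44 members of the same libraries and with no test. Over the 4842 genes that averaged 10 FPKM or more it was -0.61 in WT3 and 0.53 in TG1, so the relation was not particular to the release genes. In WT3 the 22 longer members had a median deviation of -0.18 and the 22 shorter ones of 0.01. The members are long, with a median gene length of 7041 bases against 3195 for all genes tested. The median log2 fold change was 0.13 for the 22 longer members, of which 18 were positive, and 0.01 for the 22 shorter ones, of which 14 were positive. Without WT3 the medians were 0.02 and 0.03, with 13 positive members in each. With a curve on gene length subtracted in each library, the medians were 0.05 for the longer and 0.02 for the shorter members.

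**Figure D4:**
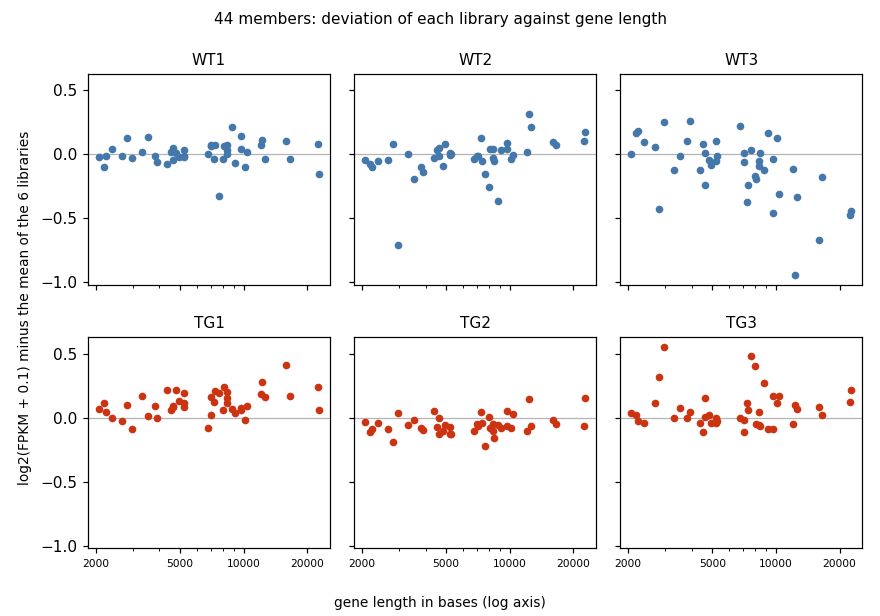
Deviation of each library from the mean of the 6 libraries on the log2(FPKM + 0.1) scale against gene length in bases on a log axis, 1 panel per library and 1 point per member. The points fall with length in WT3 (Spearman correlation -0.55) and do not in the other libraries.

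The share of one gene in the FPKM of its family, which a shift common to all members leaves as it is, was compared for 10 families. A shift that goes with gene length does not cancel where the genes of a family differ in length, as Cplx1 (2189 bases) and Cplx2 (4928 bases) do. Syn1 made up 57.3% ± 0.738 (SD, n = 3) of the synapsin FPKM in WT and 58.5% ± 1.14 (SD, n = 3) in TG mice, the family with the smallest p (two-sided exact permutation test, p = 0.3, adjusted p = 1 over the 10 families). Rims1 made up 59.6%, 59.8% and 58.0% of the FPKM of Rims1, Rims2 and Rims3 in WT and 60.4%, 57.1% and 53.8% in TG mice, where TG3, the library with the highest Rims3, was the lowest. Cplx2 made up 55.1% of the complexin FPKM in each group, with SDs of 3.72 and 1.06. WT3 was the low library at 50.82%, against 56.47% in WT1 and 57.85% in WT2. Vamp2 made up 94.9% of the FPKM of Vamp1 and Vamp2 in each group, Syt1 97.5% and 97.0% of that of Syt1 and Syt2, Unc13a 84.8% and 83.8% of the Munc13 genes, Rab3a 80.8% and 80.1% of the Rab3 genes, Doc2b 89.6% and 89.5% of the Doc2 genes, Sv2a 58.3% and 57.9% of the SV2 genes, and Syngr1 59.0% and 59.7% of the synaptogyrins, in WT and TG mice. With 3 against 3 libraries no p under 0.1 is possible here, so these tests could not have passed 0.05.

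The wider release and recycling machinery, 71 further genes listed by function, had no called gene either. Of the 70 genes tested, 0 passed an adjusted p of 0.05 in limma, with 2 higher and 2 lower at an unadjusted p under 0.05 (against 3.13% and 2.78% of all genes tested), and the median log2 fold change was 0.02. Groups did not overlap for 3 of these 70 genes with higher and 4 with lower values in TG mice. Over all 20952 genes tested the counts were 1330 (6.35%) and 1197 (5.71%). Rims4, which encodes another short RIM protein, had 13.7, 12.5 and 12.3 FPKM in WT and 15.5, 15.1 and 16.1 FPKM in TG mice. The groups did not overlap, and the log2 fold change was 0.28 ± 0.07 (SE), with an unadjusted p of 0.00587 and an adjusted p of 0.786 in limma. Syt9 had 1.69, 1.38 and 1.46 FPKM in WT and 2.60, 2.48 and 1.70 FPKM in TG mice, with a log2 fold change of 0.53 ± 0.19 (SE), and TG1 and TG2, the libraries with choroid plexus markers, were the high ones. Apba1, which encodes the Munc18 partner Mint1, had a log2 fold change of 0.24 ± 0.11 (SE). Lower values were found for Synpr, the gene of synaptoporin, a vesicle protein of mossy fibre terminals, with 14.7, 15.8 and 17.6 FPKM in WT and 13.6, 14.3 and 13.0 FPKM in TG mice. Its groups did not overlap, and its log2 fold change was -0.23 ± 0.09 (SE) with an unadjusted p of 0.0292 and an adjusted p of 0.786 in limma. Stxbp6 and Vamp7 had log2 fold changes of -0.23 ± 0.10 (SE) each. By function, the medians were 0.02 for 9 further vesicle membrane genes, -0.02 for 9 synaptotagmins and Doc2 genes, -0.07 for 14 SNARE genes and regulators, 0.07 for 12 priming and active zone genes, 0.03 for 7 Rab genes and 0.01 for 19 endocytosis genes. The 15 postsynaptic scaffold genes, on the other side of the synapse, had 0 genes at an unadjusted p under 0.05, a median of 0.13 and 14 positive members. Their median was 0.06 without WT3 and also 0.06 without TG1, with 13 positive members in each case.

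**Figure D5:**
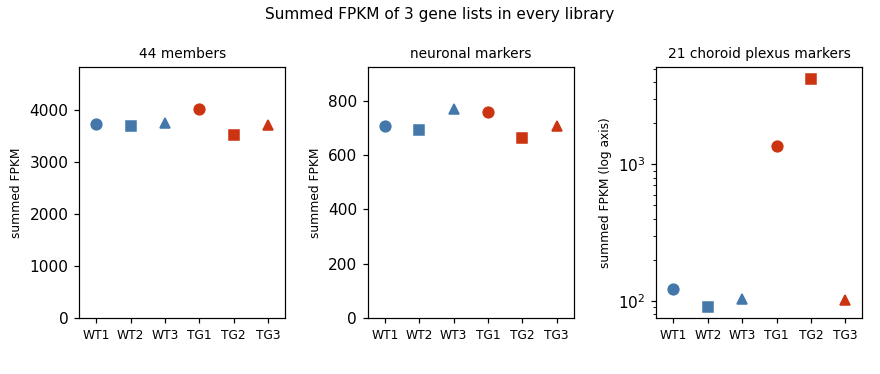
Summed FPKM of the 44 members, of the neuronal markers and, on a log axis, of the choroid plexus markers in each of the 6 libraries. The members sum to 3521 to 4019 FPKM, with TG1 highest and TG2 lowest, and the choroid plexus markers stand at 1364 and 4250 FPKM in TG1 and TG2.

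Some reads of these genes could also belong to other genes. Of the 44 members, 33 shared under 1% of their 50-base stretches with transcripts of another gene and 6 shared at least 5%. The largest shares were 28.7% for Doc2a, with Ino80e, and 16.1% for Syp, with Gm14703, which lie on the opposite strand. Strand is not stated for the counting, so the values of these genes are uncertain in part.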

How the data were processed

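Hippocampal RNA of 3 WT and 3 TG mice was analysed. The deposited values are FPKM, which the authors derived from HTSeq read numbers per gene and from gene length, with 1 unpooled column per library. Genome build GRCm38 (mm10) is named in the submitters' processing notes, and aligner and strand are not given in the sources used here. The methods name Trizol and NEBNext kits, the labels an RNeasy and a SMARTER kit. Multiplied by gene length, 100% of the values were whole multiples of a step that was constant in a library (tolerance 0.05 reads), which gave the reads per gene. Between 16081281 and 18751057 reads fell on genes, and 3 reads on a gene of 1 kb correspond to 0.160 to 0.190 FPKM. Such limits cover counting error only.

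Genes averaging 0.1 FPKM or more (20952) were tested with limma 3.58.1 in R 4.3.3 (lmFit, eBayes with a trend) on log2(FPKM + 0.1), 3 against 3 libraries with no covariate, with Benjamini-Hochberg adjustment over all genes and a threshold of 0.05. Nothing in the labels says more of the replicates than a number per mouse. The p-values set the group difference against the spread between these samples, moderated over all genes. Log2 fold changes understate the change of low genes. The script was tested on simulated data. Scripts also ran in Python 3.11.15 with numpy 2.4.6 and matplotlib 3.10.9.

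Named members are, in each functional class, the most abundant and the one with the smallest p, the 5 with the smallest p in each direction, those whose groups did not overlap, those with a mean under 1 FPKM and, of the wider list, the 3 with the smallest p in each direction. Other genes given with values were chosen after these were seen. The members, lists and tests were chosen with earlier results of these data known, and the markers of hippocampal fields and 2 alternatives (a lowess curve on gene length, span 0.3, subtracted in each library, and leaving out both TG1 and TG2) were added after the data were seen. Alternatives on pseudocount, filter, scaling, variance model, choroid plexus covariate, voom on the recovered reads, replicate block and left-out libraries are given in the closing section. Same-numbered WT and TG libraries did not deviate together.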

Additional observations from a re-analysis of the deposited data

How the results depend on the processing

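No member passed an adjusted p of 0.05 and none was lower at an unadjusted p under 0.05 under any alternative run with at least 2 libraries per group. The median log2 fold change of the members stayed positive, between 0.0038 without TG1 and 0.0843 without TG2, with 0.02 after the correction for gene length and 0.08 with equal FPKM sums, a scaling that moved the median of all genes to 0.03. The number of members higher at an unadjusted p under 0.05 was 1 (Rims3). It was 0 with no trend on expression and 0 corrected for gene length. With the choroid plexus covariate, which was high only in TG1 and TG2, it was 2 (4.55% of the members, Rims3 and Syt2). There 1.60% of all genes tested were higher at that p. It ranged from 0 (without WT3) to 2 when 1 library was left out, with Syt7 and Unc13b without WT2 and Rims3 and Syt2 without TG2. Without TG3, Doc2b took the place of Rims3. The share of all genes higher at that p was 2.14% to 3.57% with 1 library left out. Without both TG1 and TG2, only TG3 was set against the WT libraries, so no count is given. There the log2 fold changes of Rims3 and Syt2, both highest in TG3, were 0.56 and 0.63. Of the 44 members, 6 changed the sign of their log2 fold change when corrected for gene length, among them Syt5, from -0.05 to 0.0042. Without WT3 10 changed sign and without TG1 8, and under each of the other alternatives 6 or fewer. The cause was not tested.

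Over all genes, 1 gene was called higher and 1 lower, neither of them a member. Both counts were 0 with a pseudocount of 0.01 or 1, with every gene above 0 FPKM, with equal FPKM sums, with the choroid plexus covariate and with limma-voom. They were 6 and 3 with no trend on expression. With a minimum mean of 1 FPKM the count of higher genes was 0, and corrected for gene length that of lower genes was 0. With 1 library left out the count of higher genes ranged from 0 to 6 (without TG1) and that of lower genes was 0.

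With the replicate number as a block, 0 genes were called higher and 0 lower, and 1 member was higher at an unadjusted p under 0.05, as without the block. Correlations of the deviations of same-numbered libraries were 0.01, 0.04 and 0.003, so they showed no shared deviation. With 3 libraries per group this cannot exclude that the numbers pair the samples. The deviations of WT1 and WT2 correlated best with those of the library with their own number and the deviations of WT3 with those of TG1 (0.02).

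The fewest reads of a member in a library were 68. At the median SE of a member, 0.10 on the log2 scale, and with adjustment over all genes, small changes of single members were not detectable here.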
